A study of Drosophila melanogaster with 2 samples.

Results

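The genes described here encode proteins of the mitochondrial ribosome of Drosophila melanogaster. They were chosen by symbol, as protein-coding genes named mRpL (large subunit) or mRpS (small subunit) plus a number, which gave 73 of the 13945 protein-coding genes on the 6 chromosome arms, 47 for the large subunit and 26 for the small one. The measurement was chromatin immunoprecipitation and sequencing (ChIP-seq) of CG12236, a BTB domain zinc finger protein. All samples belonged to 1 group: embryos of both sexes, 0 to 24 h old, from a transgenic line that expressed CG12236 with a C-terminal eGFP, with an antibody against GFP. The 2 biological replicates carry the numbers 1 and 3. The line expresses a tagged protein from a transgene, whole embryos mix all cell types, and no list from untagged embryos was analysed here. The authors' list of reproducible peaks, made with the irreproducible discovery rate (IDR) and here called the IDR list, has 2426 peaks. A gene was said to hold an IDR peak when a summit from it lay within 500 bp of any of the gene's transcript starts. Coordinates are 1-based on dm6.

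The mitochondrial ribosome translates the few messenger RNAs made inside the mitochondrion, all of which encode core subunits of the respiratory chain and ATP synthase in animals. Its RNAs come from mitochondrial DNA, whereas its proteins are encoded in the nucleus, made in the cytosol and imported. The small subunit decodes the message and the large subunit joins the amino acids and holds the exit tunnel. Some of its proteins descend from those of bacterial ribosomes, and others were added in mitochondria.

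Of the 73 genes, 10 held an IDR peak (13.7%, 95% Wilson interval 7.61 to 23.4%), beside 10.2% of all protein-coding genes. The interval includes the share of all genes. It covers counting error only. A peak in a promoter common to a pair of genes counts for both. The 10 holders spanned nearly the whole range of ranks in the IDR list, from rank 9 to rank 2383 of 2426. At 8 of them a protein-coding neighbour on the other strand had its start within 500 bp of the same summit. Promoter DNA of 4 holders is shown to let a reader see the sequence under the summits. mRpS10, mRpS23 and mRpL24 have a divergent promoter, shared with a neighbour on the other strand, and mRpL4 has no such neighbour within 500 bp. Each sequence is read on the strand of the named gene and ends next to its start or, for mRpS23, inside the stretch between the starts, and capitals mark the 21 bases centred on the IDR summit. The stretches are chr3R:15229409-15229664 on the forward strand, all of the DNA between the starts of mRpS10 and Art3, chr2L:13835264-13835563 on the reverse strand, 300 bases next to the start of CenG1A, chr2L:4945362-4945578 on the reverse strand, all of the DNA between the starts of mRpL24 and betaggt-I, and chr2L:16329133-16329332 on the reverse strand, the 200 bases before mRpL4. The sequences are from the RefSeq Release 6 genome.
mRpS10: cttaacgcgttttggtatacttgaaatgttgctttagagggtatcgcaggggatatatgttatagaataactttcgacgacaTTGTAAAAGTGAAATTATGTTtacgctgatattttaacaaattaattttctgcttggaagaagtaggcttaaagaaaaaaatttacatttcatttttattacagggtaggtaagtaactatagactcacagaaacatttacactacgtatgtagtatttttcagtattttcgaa
mRpS23: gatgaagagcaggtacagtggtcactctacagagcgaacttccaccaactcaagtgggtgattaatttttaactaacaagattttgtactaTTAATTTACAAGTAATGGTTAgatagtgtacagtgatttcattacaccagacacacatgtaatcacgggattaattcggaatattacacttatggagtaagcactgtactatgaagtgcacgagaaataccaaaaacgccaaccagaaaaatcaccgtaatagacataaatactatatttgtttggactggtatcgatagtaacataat
mRpL24: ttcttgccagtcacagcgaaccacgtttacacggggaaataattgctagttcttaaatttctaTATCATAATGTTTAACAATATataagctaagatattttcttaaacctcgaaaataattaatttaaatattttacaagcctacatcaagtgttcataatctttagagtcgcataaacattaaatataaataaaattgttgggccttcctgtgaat
mRpL4: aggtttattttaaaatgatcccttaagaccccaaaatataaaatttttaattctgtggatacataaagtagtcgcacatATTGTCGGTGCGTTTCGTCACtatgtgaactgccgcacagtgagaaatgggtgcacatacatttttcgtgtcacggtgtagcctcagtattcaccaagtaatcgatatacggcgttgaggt
The GC content of these stretches was 30.1% at mRpS10, 35.3% at mRpS23, 28.6% at mRpL24 and 39.5% at mRpL4. Of the 7 motifs and words described below, the DRE (TATCGATA) was found at mRpS23, 184 bp from the summit. The word CACTGTGC was found at mRpL4, as its reverse complement, 27 bp from the summit. TATAAA was found 114 bp from the summit at mRpL24 and 51 bp from it at mRpL4. The stretch at mRpS10 held none of the 7.

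The small subunit supplied the pair of strongest peaks. mRpS10, whose product is the homologue of bacterial ribosomal protein S10, had a pooled signal of 731 (rank 9), with 227 in replicate 1 (rank 13) and 502 in replicate 3 (rank 9). The peak ran from 15229349 to 15229718 on 3R. mRpS23, which encodes a protein found in mitochondrial ribosomes but not in bacterial ones, had a pooled signal of 676 (rank 15), with 239 in replicate 1 (rank 10) and 436 in replicate 3 (rank 17). Its peak ran from 13835313 to 13835641 on 2L. Both genes therefore stood among the 17 strongest regions of every list. The signal is the authors' own value, no source used here states its scale, and its level differs between lists, so ranks rather than signals are compared between replicates. No other small subunit gene held an IDR peak, which gave 2 of 26 (7.69%, Wilson interval 2.14 to 24.1%), beside 10.2% of all protein-coding genes. Both summits lay nearer to the start of a neighbour, as described below.

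The large subunit had 8 holders among 47 genes (17%, Wilson interval 8.89 to 30.1%). The intervals of the subunits overlap, and both include the 10.2% of all protein-coding genes. mRpL41, for a protein particular to mitochondrial ribosomes, had a pooled signal of 619 (rank 19), with 189 in replicate 1 (rank 22) and 431 in replicate 3 (rank 18), over 15217579 to 15217940 on 2R. mRpL23, for the homologue of the bacterial tunnel exit protein L23, had a pooled signal of 314 (rank 95), with 105 in replicate 1 (rank 122) and 212 in replicate 3 (rank 84), over 2373484 to 2373750 on 3L. These 4 strongest members ranked alike in both replicates.

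The next members were weaker and less even. mRpL34 (homologue of bacterial L34) had a pooled signal of 156 (rank 565), with 42.2 in replicate 1 (rank 1151) and 115 in replicate 3 (rank 410), over 16098564 to 16098987 on 2R. mRpL24 (homologue of bacterial L24) had a pooled signal of 104 (rank 1195), with 33.1 in replicate 1 (rank 1894) and 68.3 in replicate 3 (rank 1154), over 4945293 to 4945716 on 2L. Both ranked better in replicate 3. The same held, with a wider gap, for the following pair. mRpL53, for a mitochondrial addition to the ribosome, had a pooled signal of 83.7 (rank 1814), with 23.8 in replicate 1 (rank 3814) and 58.2 in replicate 3 (rank 1529), over 13953865 to 13954288 on 2R. mRpL35 (homologue of bacterial L35) had a pooled signal of 82.9 (rank 1851), with 21.1 in replicate 1 (rank 4923) and 60.6 in replicate 3 (rank 1427), over 22022950 to 22023373 on 3R. In replicate 1 neither reached the 2426 strongest regions.

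The last pair of holders ranked better in replicate 1. mRpL51, for another mitochondrial addition, had a pooled signal of 77.3 (rank 2089), with 35.5 in replicate 1 (rank 1632) and 43.0 in replicate 3 (rank 2554), over 8517199 to 8517622 on 2L. mRpL4, for the homologue of the bacterial tunnel protein L4, had a pooled signal of 71.3 (rank 2383), with 34.3 in replicate 1 (rank 1754) and 39.4 in replicate 3 (rank 2992), over 16329031 to 16329454 on 2L. In replicate 3 both fell just outside the 2426 strongest regions. Counting as many top regions in each replicate as the IDR list holds, 8 members had one in replicate 1 (11% beside 10.7% of all genes), 9 in replicate 3 (12.3% beside 10%) and 6 in both (8.22% beside 7.33%). The 6 were mRpS10, mRpS23, mRpL41, mRpL23, mRpL34 and mRpL24. mRpS2 alone was a top gene in 1 replicate without an IDR peak, at rank 2111 in replicate 3 and 2976 in replicate 1.

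**Figure D1:**
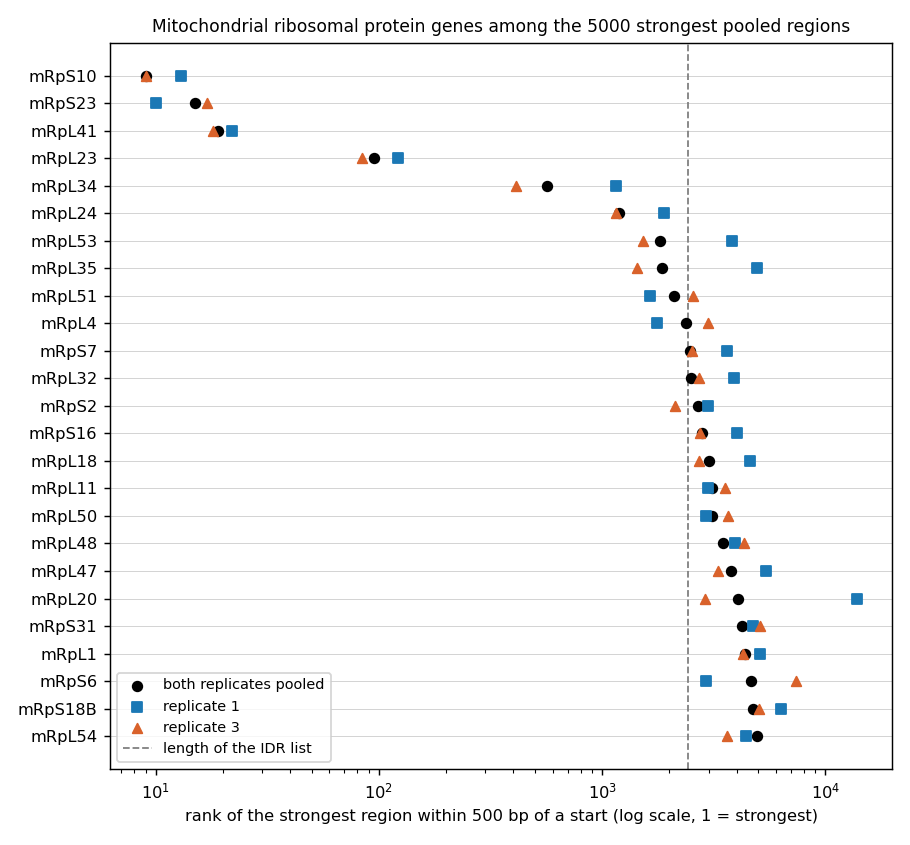
Rank of the strongest region at each of the 25 members within the 5000 strongest pooled regions, in the pooled list and in each replicate (log axis, 1 is strongest, dashed line at the length of the IDR list, 2426). The 4 members at the top rank between 9 and 122 in every list, and most of the others gather near the dashed line.

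Most mitochondrial ribosomal protein genes had a region below the IDR list. Among the 1213 strongest pooled regions, 6 members had one at a start (8.22%), beside 5.51% of all genes. Among the 5000 strongest pooled regions, 25 members had one at a start (34.2%, Wilson interval 24.4 to 45.7%), beside 19.7% of all protein-coding genes. The pooled ranks between the end of the IDR list and 5000 added 15 members (20.5%, interval 12.9 to 31.2%), beside 9.44% of all genes. Down to rank 10000 there were 37 members (50.7%, beside 31.6%), and down to rank 15000 there were 48 (65.8%, beside 38.9%). In the whole pooled list of 30000 regions, whose weakest regions have low signal, 59 members had a region (80.8%, interval 70.3 to 88.2%), beside 51.8% of all genes. The authors label this list as peaks and background, so a region in it need not be a bound site. Among members the −log10 q of the strongest region fell to 1.24 at mRpL42 (rank 8252) and 0.17 at mRpS18C (rank 27842). The members' share thus lay near that of all genes in the IDR list and above it further down. Split by promoter arrangement, as described below, the intervals among the 5000 strongest regions included the share of all genes so arranged. No test of these shares was made, since the genes were chosen with earlier results of the data known. Among genes with a pooled region, the median rank of the strongest one was 5690 for members and 7123 for all genes.

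**Figure D2:**
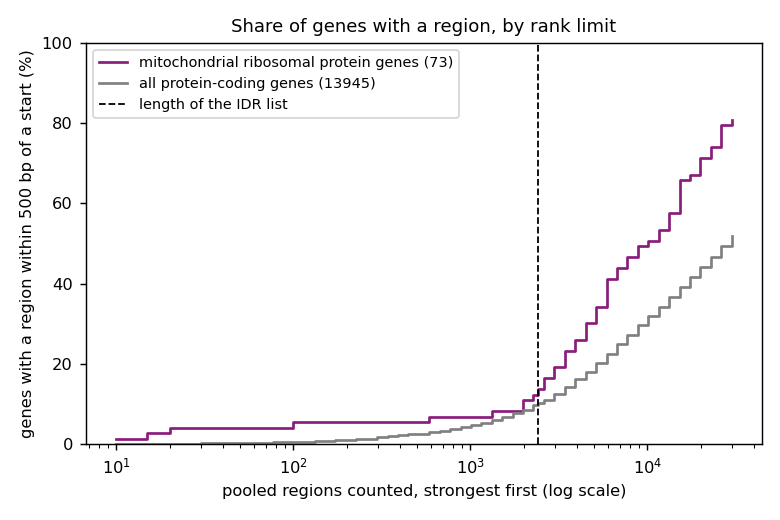
Share of genes with a region within 500 bp of a start against the number of pooled regions counted, strongest first (log axis), for the 73 members and all 13945 protein-coding genes. The lines lie close at the IDR list (13.7% and 10.2%) and apart at 5000 regions (34.2% and 19.7%).

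The step from inside to outside the IDR list was small in signal. Since that list is the 2426 strongest pooled regions, a small step at its end was fixed in advance. The weakest holder, mRpL4, had a pooled signal of 71.3, and the weakest peak in the list 70.5. mRpS7 followed outside it with 69.7 (rank 2487, with ranks 3637 in replicate 1 and 2537 in replicate 3). mRpL32 had 69.4 (rank 2499, with ranks 3913 and 2730) and mRpS2 had 66.2 (rank 2696). mRpS16 had 64.5 (rank 2813), mRpL18 62.0 (rank 2999) and mRpL11, for a protein near the factor binding site of bacterial ribosomes, 60.9 (rank 3101). In each of these 6 the replicates ranked between 2111 and 4596. Of the 15 members in that band, 7 had the highest −log10 q in the list, 3.82, which the 10 holders also had, and their pooled signals ran from 46.7 to 69.7. Their ranks ran from 2909 to 13848 in replicate 1 (median 4014) and from 2111 to 7362 in replicate 3 (median 3548).

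A further 34 members had their strongest pooled region beyond rank 5000, with signals of 17.7 to 45.2. They include mRpL12, whose product forms the stalk of the large subunit, at rank 11076, and mRpS29, which encodes a GTP-binding protein of the small subunit, at rank 13009. These 2 were picked after their values were seen. The remaining 14 had no pooled region within 500 bp of a start. A pooled region was present at 80.8% of members beside 51.8% of all genes. Of the 14, mRpL33, mRpL40, mRpL45 and mRpS28 had a region in replicate 1 alone, at ranks from 9643 to 28558, and mRpS5, mRpS25 and mRpS35 in replicate 3 alone, at ranks from 14499 to 28792. The other 7, mRpL13, mRpL15, mRpL16, mRpL38, mRpL39, mRpL49 and mRpS9, had none in any list. Counting all regions, 59 members had one in replicate 1 (80.8%, beside 51.5% of all genes), 54 in replicate 3 (74%, beside 50.1%), 47 in both (64.4%, beside 39.6%) and 66 in any list (90.4%, beside 63.2%). Across the 47 members with a region in both replicates, the ranks had a Spearman rho of 0.736, beside 0.654 across 5524 genes. Both values are descriptions across genes that share 2 libraries and 1 control alignment.

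A start on the other strand was the usual arrangement at these promoters. In 53 of 73 members (72.6%, Wilson interval 61.4 to 81.5%), a protein-coding gene on the other strand started within 500 bp, beside 27.8% of all protein-coding genes. All 53 neighbours started upstream, so the pairs are transcribed away from each other, at a median distance of 264 bp. In none of the 53 was the neighbour another member. Of the members in this arrangement, 8 held an IDR peak (15.1%, interval 7.85 to 27.1%), beside 20.4% of all genes so arranged. Of the 20 members without it, 2 held one, mRpL41 and mRpL4 (10%, interval 2.79 to 30.1%), beside 6.35% of all such genes. The share over all members therefore lay above that of all genes, while the share within divergent promoters lay below it, and both intervals include the value beside them. Among the 5000 strongest pooled regions, divergent promoters gave 23 of 53 members (43.4%, interval 31 to 56.7%, beside 36.8%). The others gave 2 of 20 (10%, interval 2.79 to 30.1%, beside 13.1%). Each of these intervals includes the value beside it. In the band below the IDR list, 15 of 15 members had a divergent promoter (interval 79.6 to 100%). This stands beside 48.5% of all genes in that band and 72.6% of all members. In the whole pooled list, divergent promoters gave 47 of 53 (88.7%, interval 77.4 to 94.7%, beside 77%). The others gave 12 of 20 (60%, interval 38.7 to 78.1%, beside 42.2%), where the interval includes the value beside it.

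The neighbours at the 8 shared peaks were varied in function. mRpS10 shared its peak with Art3, which encodes an arginine methyltransferase, with the summit at −164 bp from the start of mRpS10 and −93 bp from that of Art3, negative values being upstream. mRpS23 shared with CenG1A, for a centaurin family GTPase regulator, and the summit lay at −390 bp from mRpS23 and −102 bp from CenG1A. mRpL24 shared with betaggt-I, for a subunit of an enzyme that attaches lipids to proteins, at −144 and −74 bp. In all of these the summit was nearer to the neighbour. It was also nearer to AGO1, the Argonaute of the microRNA pathway, at −52 bp against −118 bp for mRpL53, which starts at the same base as CG33155. At mRpL35 the neighbour was Mitofilin, for a scaffold protein of mitochondrial cristae, with the summit at −365 bp from mRpL35 and −88 bp from the nearest Mitofilin start. Another Mitofilin start lies closer to mRpL35, 192 bp upstream of it. The summit lies downstream of that start, inside Mitofilin and outside the stretch between the genes. At mRpL51 the summit fell on the first base of Uba4, for an enzyme that activates a ubiquitin-like protein, and at −31 bp from mRpL51.

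In the other 2 shared peaks the summit was nearer to the member. At mRpL34 it lay at −172 bp from that gene and −212 bp from Dg, which encodes dystroglycan. At mRpL23 it lay 45 bp downstream of a start of that gene and at −95 bp from CG9004. The summit at mRpL41 had no protein-coding neighbour, but lay 430 bp downstream of the start of a non-coding gene on the same strand, lncRNA:CR44463. The ChIP signal of a shared promoter cannot be divided between its genes. When each IDR summit counted only for the gene with the nearest start, 4 members kept a peak, mRpL41, mRpL23, mRpL34 and mRpL4 (5.48%, beside 7.66% of all genes). Summits of the replicates at the 10 holders lay 7 to 121 bp apart (median 30.0 bp), and 8 of 10 were within 50 bp. The widest gap was at mRpL53, where the summit lay at 4 bp in replicate 3 and −117 bp in replicate 1.

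**Figure D3:**
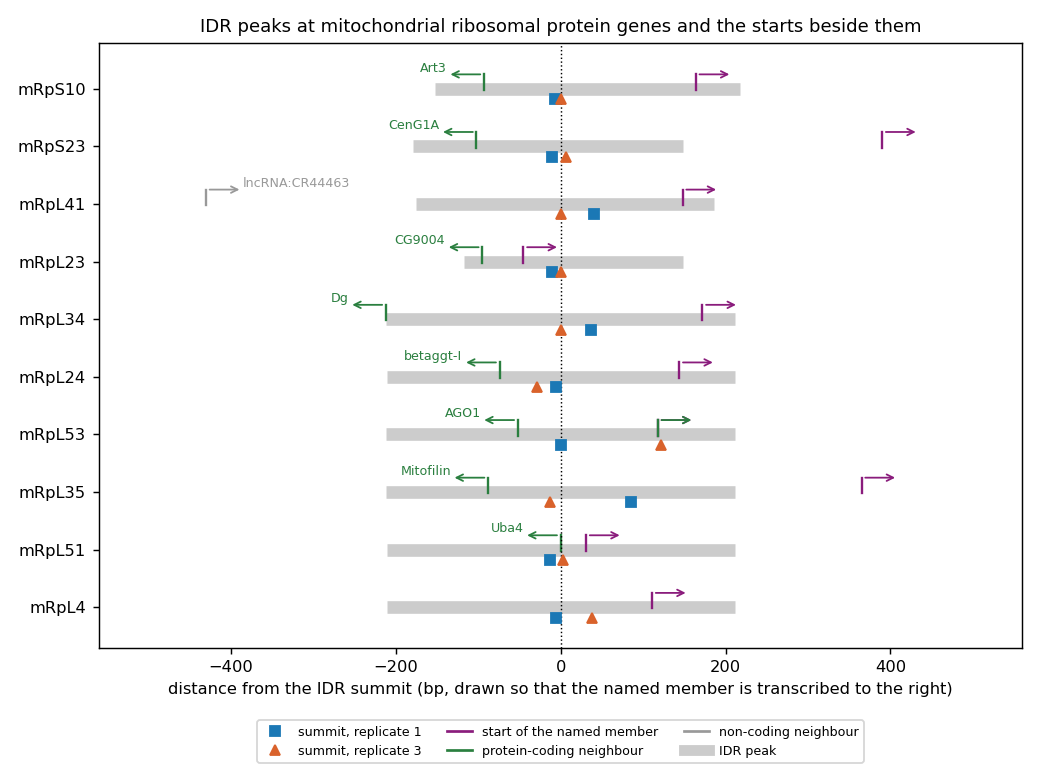
Maps of the 10 promoters with an IDR peak, in bp from the IDR summit and oriented so that the named member is transcribed to the right, with the peak as a grey bar, starts as arrows and replicate summits as squares and triangles. For each gene only the start nearest the summit is drawn. In 6 of the 8 promoters shared with a protein-coding neighbour on the other strand the summit lies nearer to the neighbour's start. At mRpL53 the start of CG33155 is drawn on the same base as that of the member.

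Summits lay mostly upstream of the members. At the 10 holders the median position relative to the nearest own start was −146 bp, with a range of −390 to 45 bp, and 9 of 10 were upstream (90.0%, beside 84.5% of all genes with an IDR peak, whose median was −121 bp). Across the 59 members with a pooled region, 43 were upstream (72.9%, beside 65.6%), with a median of −94 bp beside −65 bp. The medians were −107 bp beside −62 bp in replicate 1 and −57.5 bp beside −64 bp in replicate 3, so the order of members and all genes differed between the replicates. The positions of these 59 ran from −390 to 409 bp, and 40 were within 200 bp of a start. The pooled summit was nearer to the neighbour in 24 of the 47 members with a divergent promoter and nearer to the member in 23, so the lean towards the neighbour at the IDR peaks was not seen over the wider list. In replicate 1 the counts were 21 and 25, and in replicate 3 they were 18 and 25.

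**Figure D4:**
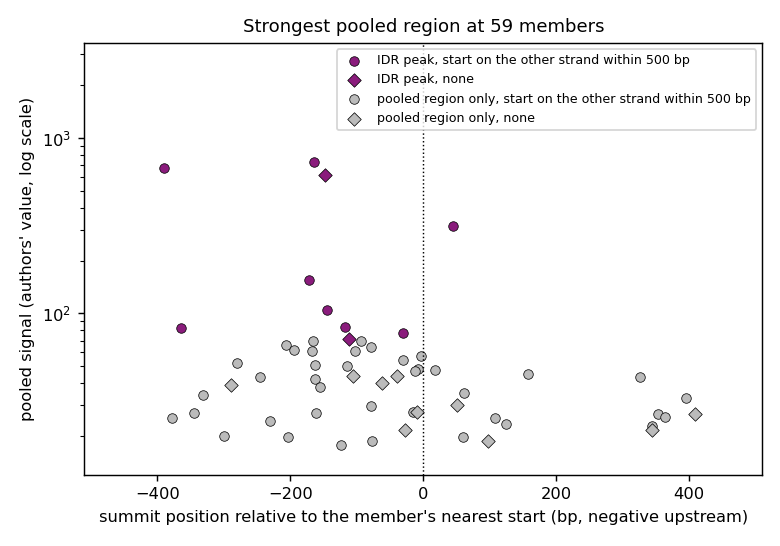
Pooled signal (authors' value, log axis) against the position of the summit relative to the nearest start of the member, for the 59 members with a pooled region. The 10 holders of IDR peaks, in purple, lie upstream except mRpL23 at 45 bp, and the 7 regions more than 200 bp downstream have signals of 21.6 to 43.3.

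Counts were also taken by chromosome arm. Peaks of the IDR list were at 4 of 12 members on 2L (33.3%, beside 10.5% of genes on that arm), 3 of 12 on 2R (25%, beside 9.85%), 1 of 17 on 3L (5.88%, beside 10.7%), 2 of 21 on 3R (9.52%, beside 11%) and 0 of 11 on X (Wilson upper limit 25.9%, beside 8.79%). The X chromosome also had 0 of 11 members among the 5000 strongest regions (beside 16.8% of X-linked genes) and 6 of 11 in the whole pooled list (54.5%, beside 51.3%). Autosomes had 25 of 62 among the 5000 strongest (40.3%, beside 20.2%). In the whole pooled list, 53 of 62 autosomal members had a region (85.5%, beside 51.9%), among them 11 of 12 on 2L (91.7%, beside 49.2%) and 11 of 12 on 2R (91.7%, beside 52.2%). The counts per arm are small. The Wilson interval of the IDR share was 13.8 to 60.9% on 2L, above the share of all genes there, and on 2R, 3L, 3R and X it included that share. The count on 2L rests on mRpS23, mRpL24, mRpL51 and mRpL4. Among as many top regions of replicate 3 as the IDR list holds, the count was 3 of 12, where mRpL51 and mRpL4 were lost and mRpS2 was gained. With each IDR summit counted only for its nearest start, the count on 2L fell to 1 of 12, mRpL4.

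The DNA of the member promoters was searched for known promoter motifs and for the word CACTGTGC. These were searched on both strands of the reference from 250 bases before to 50 after each gene start, each on its own, so that matches of different motifs may overlap. The E-box CAGCTG, the core of the element known as Ohler motif 5, was present in 40 of 73 member promoters (54.8%, Wilson interval 43.4 to 65.7%), beside 17.7% of all protein-coding promoters. The DRE (TATCGATA), bound by the product of Dref, was present in 15 (20.5%, interval 12.9 to 31.2%, beside 9.37%). The core of Ohler motif 1 (GGTCACAC) was in 8 (11.0%, beside 7.71%) and Ohler motif 7 (CATCNCTA or CAGCNCTA) in 11 (15.1%, beside 9.77%). The TATA box word TATAAA was in 34 (46.6%, beside 45.9%) and CACTGTGC in 1 (1.37%, beside 1.5%). The GAGA word GAGAG was at a lower share than over all promoters in this window, in 12 (16.4%, interval 9.66 to 26.6%, beside 29.8%), but with 500 bases before the start it was in 38.4% (interval 28.1 to 49.8%, beside 44.2%), where the interval includes the share of all promoters. A match describes the letters in the window and does not show that a factor binds there.

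In most of these members the E-box lay close to the start. It was centred 0 to 50 bases after the start in 23 members (31.5%, beside 4.80% of all genes) and in the 50 bases before it in 12 (16.4%, beside 5.12%). From 100 to 50 bases before the start it was in 3 members (4.11%, beside 3.04%), in the next 50 bases upstream in 1 (1.37%, beside 2.27%), in the 50 beyond those in 0, and from 250 to 200 bases before the start in 5 (6.85%, beside 2.22%). The nearest E-box had a median position of 7 bases after the start in members and of −42 in all genes that have one. Of the 15 members with an E-box among the 5000 strongest pooled regions, 11 are printed, leaving out those on the right arm of chromosome 2, whose sequence is not shown here. Each copy is given with 12 bases to either side, on the strand of the gene, with the E-box in capitals, from the RefSeq Release 6 genome. Where a promoter has several copies, the one nearest the start is shown.
mRpL23: gtggttgacaatCAGCTGtttaaaacaagt
mRpL24: ttcagttctcaaCAGCTGattgcaagccgc
mRpL35: gtgaatggcacaCAGCTGactgttacgcga
mRpL51: tctgactgcaatCAGCTGatgaatgtcgat
mRpL32: atatcgatagcaCAGCTGtttcctcttgcg
mRpS2: aacactacccacCAGCTGtttaccaaaatc
mRpL11: cagcaataccatCAGCTGttgctgcttctt
mRpL48: gctgcacgccatCAGCTGgtgatataacct
mRpL47: ttgttattgcttCAGCTGttttgttcggtc
mRpS6: ctttccttgcatCAGCTGttaacactatca
mRpS18B: tgtatcggaaaaCAGCTGatccgccggctc
These stretches are chr3L:2373715-2373744 for mRpL23, chr2L:4945324-4945353 for mRpL24, chr3R:22023510-22023539 for mRpL35, chr2L:8517590-8517619 for mRpL51, chr3R:31252844-31252873 for mRpL32, chr2L:4850413-4850442 for mRpS2, chr3R:14511821-14511850 for mRpL11, chr2L:1710471-1710500 for mRpL48, chr3R:9515873-9515902 for mRpL47, chr3L:4364552-4364581 for mRpS6 and chr2L:20097216-20097245 for mRpS18B. The printed E-box was centred 6 bp from the pooled summit at mRpS18B, 25 bp at mRpS6 and 28 bp at mRpL48, but 363 bp from it at mRpL35. At mRpL51 the copy lay at −224 from the start, on the far side of the start of Uba4.

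**Figure D5:**
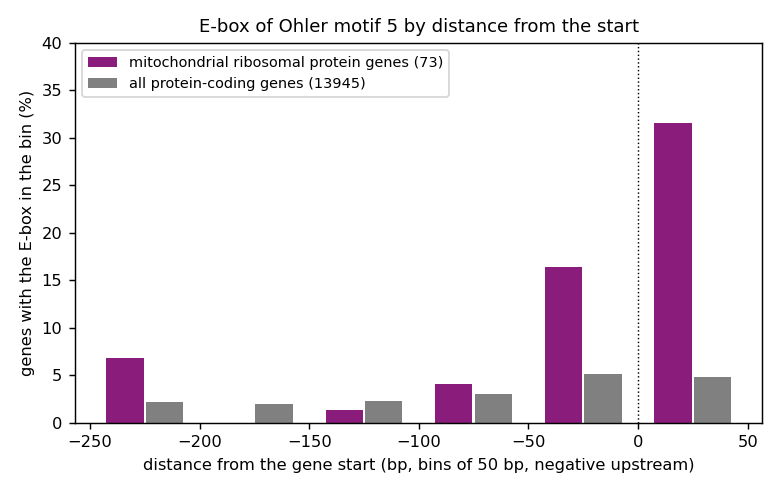
Share of genes with an E-box centred in each bin of 50 bp around the gene start, for the 73 members (purple) and all 13945 protein-coding genes (grey). The member share peaks in the bin after the start at 31.5% and in the bin before it at 16.4%, where all genes have 4.80% and 5.12%.

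The E-box was present in 15 of 25 members among the 5000 strongest regions (60.0%, Wilson interval 40.7 to 76.6%) and in 25 of the other 48 (52.1%, interval 38.3 to 65.5%), and these intervals overlap. Over all genes the shares were 23.4% among the 5000 strongest and 16.3% for the rest. It was in 32 of 59 members with a pooled region (54.2%) and in 8 of 14 with none (57.1%), beside 21.0% and 14.2% of all genes. By promoter arrangement it was in 29 of 53 divergent member promoters (54.7%, beside 25% of all divergent promoters) and 11 of 20 others (55%, beside 14.9%). Large subunit genes had it in 27 of 47 (57.4%) and small subunit genes in 13 of 26 (50%), beside 17.7% of all genes. Members on X had it in 3 of 11 (27.3%, interval 9.75 to 56.6%), the lowest of these member shares. That interval includes both the 54.8% of all members and the 17.7% of all genes. The DRE was in 5 of the 25 members (20.0%) and 10 of the other 48 (20.8%), beside 14.6% and 8.08% of all genes. Within 100 bp of the summit, 9 of the 25 had the E-box (36%), beside 14% of the 2250 promoter summits among the 5000 strongest regions. Both shares were lower than in the whole promoter window (60.0% and 23.4%), where members were also above all genes. Whether the E-box of members lies closer to summits was not tested. At mRpL24, mRpL32 and mRpS2 the copy near the summit is another one than that printed. The DRE was within 100 bp of the summit in 1 of the 25, at mRpS18B (4.0%, beside 7.69%), GAGA in 3 (12%, beside 23.4%) and Ohler motif 7 in 0 (beside 10%).

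Other genes that work with the mitochondrial ribosome were counted for comparison, from lists taken by symbol. Of all protein-coding genes, 10.2% held an IDR peak. None of 16 mitochondrial tRNA synthetase genes (Wilson upper limit 19.4%) and none of 9 genes for mitochondrial translation factors (upper limit 29.9%) held an IDR peak, nor did tko and bonsai, which encode the small subunit proteins S12 and S15 under other names. None of 10 mitochondrial import genes held one (upper limit 27.8%). The share of all genes lies below each of these upper limits, so these small lists cannot be told apart from it. Of 15 genes for mitochondrial DNA and RNA factors, 3 did (20.0%, interval 7.05 to 45.2%, beside 10.2%). These were PNPase, for an RNA exonuclease (signal 708, rank 12, with rank 11 in each replicate), mtSSB, for the single-strand DNA binding protein (signal 137, rank 723), and PolrMT, for the mitochondrial RNA polymerase (signal 87.3, rank 1681).

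The respiratory chain and ATP synthase, whose core subunits the mitochondrial ribosome makes, had peaks at 7 of 84 nuclear genes (8.33%, interval 4.1 to 16.2%, beside 10.2%). The strongest were at COX5A (signal 166, rank 490), ND-ASHI (signal 147, rank 631) and ND-MWFE (signal 139, rank 708). Among the 5000 strongest pooled regions this list had 17 of 84 (20.2%, interval 13.0 to 30.0%), close to the 19.7% of all genes. Cytosolic ribosomal protein genes had an IDR peak at 55 of 86 (64%, interval 53.4 to 73.3%, beside 10.2% of all genes). Their median summit was at −25 bp against −146 bp for the members. A start on the other strand lay within 500 bp in 34 of 86 (39.5%, beside 27.8% of all genes). The E-box was in 7 of 86 (8.14%, beside 17.7% of all genes). The E-box was in 8 of 16 mitochondrial tRNA synthetase promoters (50%), 5 of 9 of the translation factors (55.6%), 7 of 15 of the DNA and RNA factors (46.7%), 4 of 10 of the import genes (40%) and 20 of 84 of the respiratory chain and ATP synthase (23.8%). All these E-box shares stand beside the same 17.7% of all genes. The differences between lists were not tested.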

How the data were processed

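Peak lists on dm6 from the 2 replicates, from both pooled and from the optimal IDR step were used. Column 7 is the authors' deposited signal value, column 9 their deposited −log10 q value and column 10 the summit offset in bp, another deposited value. Per the deposited file listing, all lists share 1 control alignment. The sources used here name no aligner, peak caller or IDR threshold, and depth per sample is unknown. The IDR list was checked to be the 2426 strongest regions of the pooled list. Lists on dm3 were not used here.

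Starts came from Ensembl release 115 (BDGP6.54) and sequence from RefSeq (Release 6 assembly, the same as dm6). For each gene and list the strongest region with a summit within 500 bp of a start was taken. Shares carry 95% Wilson intervals. No significance test was made: there is 1 group, and the members, lists and motifs were chosen with earlier results of these data known. Named genes were all holders and their neighbours, the 6 best ranked members without an IDR peak, members with no pooled region, at most 3 holders per other list, and the members whose E-box is printed. The last were added after values were seen. mRpL42, mRpS18C, mRpL12, mRpS29, tko and bonsai were named outside these rules. Of the names in the 7 other lists 5 could not be matched, and DAP3 matched the member mRpS29. The assignment was tested on simulated data. Python 3.11.15, numpy 2.4.6, pandas 2.3.3, scipy 1.17.1 and matplotlib 3.10.9 were used.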

Additional observations from a re-analysis of the deposited data

How the results depend on the processing

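The 10 members with an IDR peak became 6 among the 1213 strongest peaks of the list, where mRpL53, mRpL35, mRpL51 and mRpL4 were lost, and 4 with each summit counted only for its nearest start. They stayed between 8 and 10 with windows of 200 and 1000 bp, 1 start per gene and any overlap of the peak with the window. With replicate 3 only, as many top regions as the IDR list holds gave 9 members, and with replicate 1 only they gave 8. These are the replicate counts given above and do not come from a new IDR list. The median summit position was −172 bp for replicate 3 and −125.5 bp for replicate 1. The 8 holders with a start on the other strand within 500 bp became 6 with a limit of 300 bp and 10 with 1000 bp. The 8 whose summit was shared with a neighbour became 7 within 200 bp and 10 within 1000 bp. The 59 members with a pooled region became 25 among the 5000 strongest, and the 6 members with a top region in both replicates became 19 with the top 5000 of each. With 500 bases before the start, member promoters held Ohler motif 7 at 26.0%, GAGA at 38.4% and TATA at 64.4%, beside 13.9%, 44.2% and 63.6% of all promoters, and the other 4 motifs stayed within their intervals. The causes were not tested. No paired analysis was possible because there is only 1 group.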
